A study of Homo sapiens with 6 samples.

Results

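The ABC transporters are the genes whose symbol is ABC, a subfamily letter from A to G and a number. Of 63299 rows of deposited counts, 46 met that rule on a named chromosome, and 9 further rows with such a symbol on alternative scaffolds held 0 reads and were left out. Most ABC proteins bind ATP on paired nucleotide-binding domains and use it to move a substrate across a membrane. Subfamily A moves mainly lipids, B holds P-glycoprotein and organelle transporters, C holds the multidrug resistance proteins and the sulfonylurea receptors, D serves peroxisomes and lysosomes, and G moves sterols and drugs. Subfamilies E and F have the ATP-binding domains without membrane spans and work on ribosomes and translation.

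The libraries came from LNCaP, an established human prostate cancer line of luminal type that responds to androgen. There were 3 MEP50 KD (Dox+) libraries and 3 No KD (Dox-) libraries, with a short hairpin RNA against MEP50. MEP50, the product of WDR77, is the partner of the arginine methyltransferase PRMT5. The labels give no dose, no time and no Dox-treated group lacking the hairpin, and effects of Dox and of the knockdown cannot be told apart. The replicates are called biological by the series. The values are RNA sequencing read counts per gene, and the design asks which genes differ when MEP50 is lowered.

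Library totals lay between 18568002 and 36001219 counts in MEP50 KD and between 27509105 and 36234784 counts in No KD. WDR77, which checks the labels, was at 15.0, 14.0 and 12.7 CPM in MEP50 KD replicates 1, 2 and 3 and at 49.3, 47.2 and 36.7 CPM in No KD replicates 1, 2 and 3, where CPM are counts scaled to library size by TMM. Its log2 fold change, MEP50 KD over No KD as throughout, was -1.67 (standard error 0.16, edgeR adjusted p 0.00131). All 8 luminal prostate markers were above 1 CPM in every library, and they summed to 3515.6 to 3907.0 CPM in MEP50 KD and 6059.2 to 7085.2 CPM in No KD, with KLK3 at -1.48 on the log2 scale. The 3 basal markers summed to 0 to 0.229 CPM in MEP50 KD and 0.666 to 1.11 CPM in No KD, with KRT5 at 0 reads and KRT14 called lower. The 4 blood markers summed to 0.687 to 1.19 CPM in MEP50 KD and 0.116 to 0.228 CPM in No KD, mostly LYZ. LYZ was called higher (log2 fold change 2.75, edgeR adjusted p 0.0059). The 4 stromal markers summed to 10.5 to 15.7 CPM in MEP50 KD and 6.48 to 14.4 CPM in No KD, mostly COL1A1. The 3 endothelial markers summed to 10.5 to 26.0 CPM in MEP50 KD and 18.6 to 39.1 CPM in No KD, nearly all VWF. PECAM1 and CDH5, the other endothelial markers, had at most 1 read in any library. The part of these differences in the results below was not tested. In bulk RNA, fewer cells that express a gene and less RNA per cell cannot be told apart.

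Of the 4 members called below, ABCA1, which rose, and ABCD3, which fell, are shown with the sequence around a start. RefSeq promoter sequences (GRCh38.p14, 250 bases before to 50 after a start) held 35 of the 46 members. They did not hold ABCB5 or ABCG1, the other called members, so those are not shown. The ABCA1 window is chr9:104928106-104928405 on the minus strand and the ABCD3 window is chr1:94418139-94418438 on the plus strand, both written 5′ to 3′. The ABCD3 window lies wholly before position 94418455, where ABCD3 starts in the deposited counts. Capitals mark matches to 4 motifs, searched on both strands, and no matches overlapped. The GC box, a site of the factor SP1, was searched as GGGCGG. The E-box, a site of helix-loop-helix factors, was searched as CACGTG. The TATA box, where the basal machinery can bind, was searched as TATAAA. The last motif was a loose direct repeat of nuclear receptor sites, with 2 copies of NGGTNA and 4 bases between.
ABCA1: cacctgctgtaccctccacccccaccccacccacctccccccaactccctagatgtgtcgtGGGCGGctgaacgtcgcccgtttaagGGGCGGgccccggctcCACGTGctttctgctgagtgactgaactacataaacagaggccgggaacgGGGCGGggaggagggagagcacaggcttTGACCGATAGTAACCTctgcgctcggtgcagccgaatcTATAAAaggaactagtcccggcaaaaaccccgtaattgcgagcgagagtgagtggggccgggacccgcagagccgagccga
ABCD3: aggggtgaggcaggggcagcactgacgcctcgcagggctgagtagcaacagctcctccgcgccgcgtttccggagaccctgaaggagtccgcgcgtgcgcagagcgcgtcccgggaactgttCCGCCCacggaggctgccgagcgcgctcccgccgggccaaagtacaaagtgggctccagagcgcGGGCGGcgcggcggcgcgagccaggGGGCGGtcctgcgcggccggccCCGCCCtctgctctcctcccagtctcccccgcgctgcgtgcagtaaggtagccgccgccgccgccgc
The ABCA1 window held 3 GC boxes, 1 E-box, 1 TATA box and 1 loose direct repeat, and the ABCD3 window held 4 GC boxes and no match to the other patterns. The repeat in ABCA1, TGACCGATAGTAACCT, begins 69 bases before the RefSeq start of this window. In the deposited counts ABCA1 extends to position 104928237 on the minus strand, which lies inside the window. By that start the repeat and the TATA box fall within the counted gene and not before it. As background, a repeat of this kind in the ABCA1 promoter is known to bind the oxysterol receptors LXR together with RXR. The loose pattern was written with the ABCA1 sequence in view, so its match there is no evidence. It occurs in 0.624% of 35116 RefSeq promoter windows, and the strict form, with AGGTCA in both copies, in 0.0199% and in 0 ABC windows. The GC box occurs in 45% of these windows, the E-box in 7.26% and the TATA box in 11.5%. The matches describe letters only.

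A gene was taken as expressed when its mean reached 1 CPM in a group. By that measure 28 of the 46 members were expressed, 4 more (ABCA4, ABCB4, ABCC2 and ABCG2) passed the filter on low counts at under 1 CPM, and 14 did not pass it. Levels of different genes are compared in TPM, a scale that divides reads by gene length. ABCC4, the exporter of cyclic nucleotides and prostaglandins also called MRP4, had the highest level, 190.7 ± 11.3 TPM in MEP50 KD and 176.1 ± 8.79 TPM in No KD (SD, n = 3 libraries per group, as throughout). It held 20.7% to 23.5% of the summed TPM of the family in MEP50 KD and 18.4% to 20.9% in No KD.

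ABCE1, the ribosome recycling factor, followed at 87.6 ± 4.75 TPM in MEP50 KD and 118.4 ± 10 TPM in No KD. ABCC1, the drug and leukotriene exporter MRP1, was at 75.0 ± 11.0 TPM in MEP50 KD and 70.1 ± 23.6 TPM in No KD. ABCF2, a cytosolic member, was at 71.6 ± 2.79 TPM in MEP50 KD and 82.4 ± 10.2 TPM in No KD. ABCC1 and ABCF2 did not differ from each other beyond their spread, so their order is not set. In the A subfamily ABCA3, a lipid transporter of lamellar bodies, was at 30.5 ± 7.35 TPM in MEP50 KD and 33.6 ± 7.27 TPM in No KD. ABCA2 was at 29.4 ± 8.38 TPM in MEP50 KD and 23.5 ± 14.2 TPM in No KD, and the SDs of ABCA2 and ABCA3 overlapped in both groups, so their order is not set either. ABCG1, the one expressed G member, was at 30.8 ± 2.67 TPM in MEP50 KD and 7.66 ± 0.918 TPM in No KD.

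**Figure D1:**
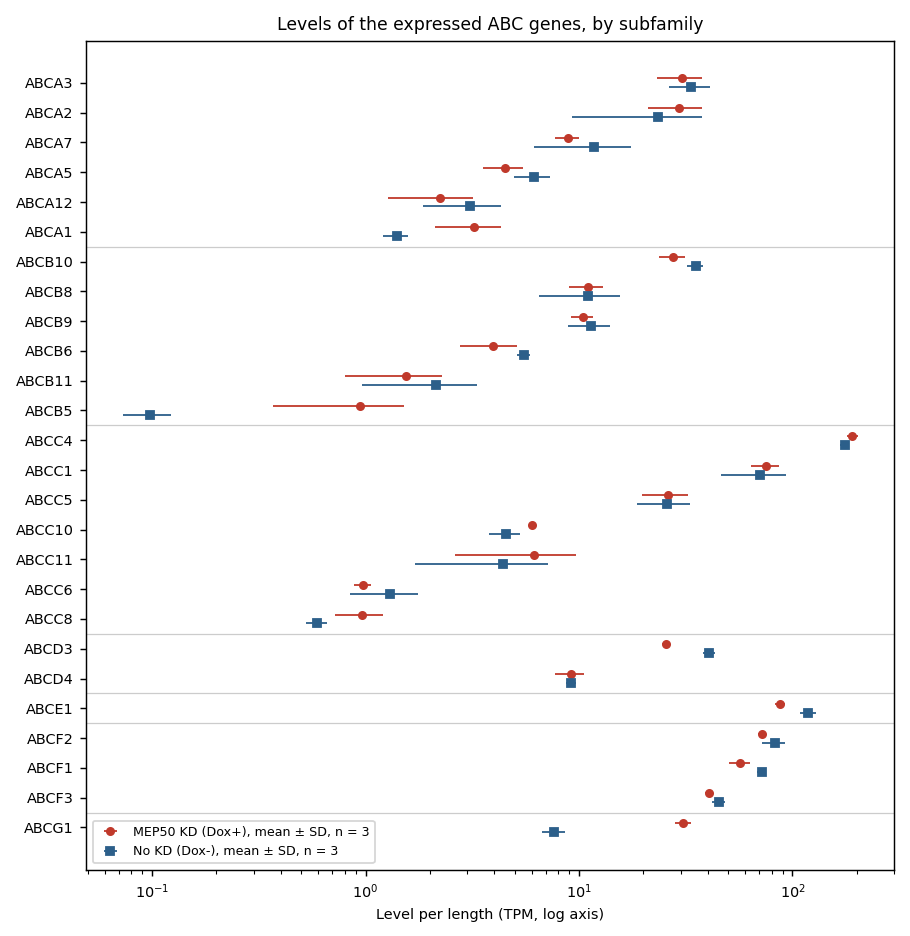
Mean level per length (TPM, log axis) of 26 expressed ABC genes by subfamily in MEP50 KD and No KD, with bars for the SD over 3 libraries. ABCC4 is the highest in both groups, and ABCG1 stands at 30.8 TPM in MEP50 KD and 7.66 TPM in No KD.

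The summed level of the family overlapped between the groups. The 46 members summed to 1925.9, 2062.9 and 1928.7 CPM in MEP50 KD replicates 1, 2 and 3 and to 1989.0, 2126.3 and 1947.8 CPM in No KD replicates 1, 2 and 3. By subfamily, the sums of E and G did not overlap between groups in CPM or in TPM. Subfamily E has 1 member, so its sum is ABCE1 alone, whose edgeR adjusted p was 0.0932. As background, the groups did not overlap for 30.4% of all single genes tested. Those of D did not overlap in CPM but did in TPM, and those of F overlapped in CPM but not in TPM. Subfamily G summed to 56.7 to 76.6 CPM in MEP50 KD and 14.4 to 19.6 CPM in No KD, nearly all of it ABCG1. The A, B and C sums overlapped on both scales.

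The drug efflux pumps ABCB1 and ABCG2 were at very low levels. ABCB1, which encodes P-glycoprotein, had 1, 0 and 1 reads in MEP50 KD replicates 1, 2 and 3 and 3, 0 and 0 reads in No KD replicates 1, 2 and 3. These lie at or under a floor of 3 reads per library, which is 0.0811 to 0.161 CPM in MEP50 KD and 0.0856 to 0.116 CPM in No KD. ABCG2, the breast cancer resistance protein, was at 0.472 ± 0.112 CPM in MEP50 KD and 0.365 ± 0.0611 CPM in No KD (log2 fold change 0.36, SE 0.37, not called). ABCC2, the MRP2 exporter of liver and kidney, was at 0.318 ± 0.225 CPM in MEP50 KD and 0.566 ± 0.177 CPM in No KD and was not called. ABCB4, the phosphatidylcholine transporter of bile, was at 0.585 ± 0.152 CPM in MEP50 KD and 0.636 ± 0.262 CPM in No KD and was not called either.

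The 14 members that did not pass the filter were ABCA6, ABCA8, ABCA9, ABCA10, ABCA13, ABCB1, ABCC3, ABCC9, ABCC12, ABCC13, ABCD2, ABCG4, ABCG5 and ABCG8. Apart from ABCA13, each had at most 7 reads in any library, and differences were not detectable at this depth. ABCA13, a very large lipid transporter, had 3, 8 and 2 reads in MEP50 KD replicates 1, 2 and 3 and 10, 23 and 10 reads in No KD replicates 1, 2 and 3. Without the filter its log2 fold change was -1.52 (adjusted p 0.0959, edgeR), which is not a call.

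Among the 32 tested members, 3 rose (ABCB5, ABCG1 and ABCA1) and 1 fell (ABCD3) at an adjusted p under 0.05 in the edgeR quasi-likelihood test. That is 9.38% higher and 3.12% lower, against 2.72% higher and 4.88% lower among the 21101 genes tested, and 12.5% against 7.60% in either direction. ABCB5, singled out with its rise known, passed the filter on low counts through the MEP50 KD libraries, so these shares are a description. The 3 higher calls became 2 without MEP50 KD replicate 2 or MEP50 KD replicate 3. The 1 lower call became 0 without MEP50 KD replicate 2, MEP50 KD replicate 3 or No KD replicate 1. The median log2 fold change was -0.10 over the tested members and 0.00 over all genes tested. The groups did not overlap for 9 tested members (28.1%), against 30.4% of all genes tested, a share near the background. Of these 4 were higher, against a background of 13.4%, and 5 were lower, against 17.0%.

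**Figure D2:**
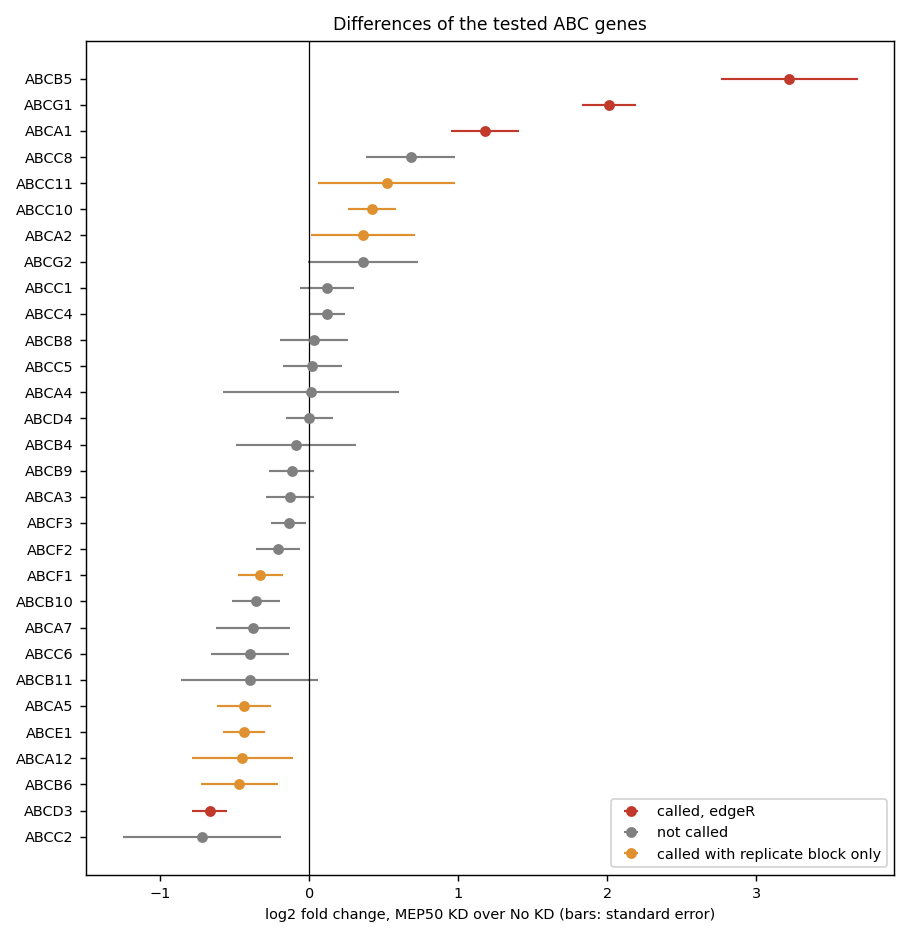
Log2 fold change, MEP50 KD over No KD, with its standard error for 30 tested ABC genes, coloured by whether edgeR called the gene, called it only with the replicate numbers as a block, or in neither fit. ABCB5, ABCG1 and ABCA1 stand at 3.22, 2.01 and 1.18, and ABCD3 at -0.67.

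ABCG1, which exports cholesterol from cells to lipoprotein particles, rose in every replicate pair. ABCG1 (ENSG00000160179.18, chromosome 21, 42199689 to 42297244, hg38) was at 75.9, 63.0 and 56.3 CPM in MEP50 KD replicates 1, 2 and 3 and at 19.1, 15.4 and 13.8 CPM in No KD replicates 1, 2 and 3. Every MEP50 KD library was far above every No KD library. The mean was 4.03-fold higher in MEP50 KD, at 65.1 ± 9.98 CPM in MEP50 KD and 16.1 ± 2.71 CPM in No KD. The log2 fold change was 2.01 (standard error 0.18, edgeR adjusted p 0.000833), and the 3 pairs gave 1.99, 2.03 and 2.02. It was called whichever library was left out, at log2 fold changes from 1.88 to 2.19.

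ABCA1, which loads cholesterol and phospholipid onto apolipoprotein A-I, rose as well. ABCA1 (ENSG00000165029.15, chromosome 9, 104781002 to 104928237, hg38) was at 9.75, 11.1 and 16.3 CPM in MEP50 KD replicates 1, 2 and 3 and at 5.12, 5.06 and 6.14 CPM in No KD replicates 1, 2 and 3. The groups did not overlap, and replicate 3 was the highest of each. The mean was 2.28-fold higher in MEP50 KD, at 12.4 ± 3.43 CPM in MEP50 KD and 5.44 ± 0.604 CPM in No KD. The log2 fold change was 1.18 (standard error 0.23, edgeR adjusted p 0.0175), and the pairs gave 0.93, 1.14 and 1.41. The call was lost without MEP50 KD replicate 2 (log2 fold change 1.26, adjusted p 0.0526, edgeR) and without MEP50 KD replicate 3 (0.94, adjusted p 0.0559). Per length its level stayed below that of ABCG1, at 3.21 ± 1.10 TPM in MEP50 KD and 1.40 ± 0.189 TPM in No KD.

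ABCB5, a relative of P-glycoprotein known from melanoma and from corneal stem cells, had the highest fold change of the tested members. ABCB5 (ENSG00000004846.16, chromosome 7, 20615207 to 20777038, hg38) had 27, 98 and 101 reads in MEP50 KD replicates 1, 2 and 3 and 7, 11 and 10 reads in No KD replicates 1, 2 and 3. It was at 1.45, 2.65 and 4.62 CPM in MEP50 KD replicates 1, 2 and 3 and at 0.272, 0.366 and 0.285 CPM in No KD replicates 1, 2 and 3. The groups did not overlap, and the MEP50 KD libraries differed more among themselves than the No KD libraries did. The mean was 9.44-fold higher in MEP50 KD, at 2.91 ± 1.61 CPM in MEP50 KD and 0.308 ± 0.0512 CPM in No KD. The log2 fold change was 3.22 (standard error 0.46, edgeR adjusted p 0.00558), with 2.74 to 3.52 when a library was left out. ABCB5 was singled out with its rise known, and it passed the filter on low counts through the MEP50 KD libraries (3 of them above the filter level, against 1 No KD library), so its p and its call describe this fit and are no independent support. Per length it was a low transcript in both groups, at 0.937 ± 0.570 TPM in MEP50 KD and 0.0981 ± 0.0249 TPM in No KD, and the precision in No KD rests on 7 to 11 reads.

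The fall was in ABCD3, the peroxisomal membrane protein PMP70, which imports branched-chain and dicarboxylic acyl-CoA. ABCD3 (ENSG00000117528.11, chromosome 1, 94418455 to 94518666, hg38) was at 67.8, 69.0 and 61.4 CPM in MEP50 KD replicates 1, 2 and 3 and at 114.9, 102.3 and 98.4 CPM in No KD replicates 1, 2 and 3. The groups did not overlap and each was narrow. The log2 fold change was -0.67 (standard error 0.12, edgeR adjusted p 0.0134), and the pairs gave -0.76, -0.57 and -0.68. The call was lost without MEP50 KD replicate 2 (adjusted p 0.0599, edgeR), MEP50 KD replicate 3 (0.0634) or No KD replicate 1 (0.0556), at log2 fold changes of -0.70, -0.62 and -0.56. No exon of ABCG1, ABCA1, ABCB5 or ABCD3 overlaps an exon of another gene in the table.

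**Figure D3:**
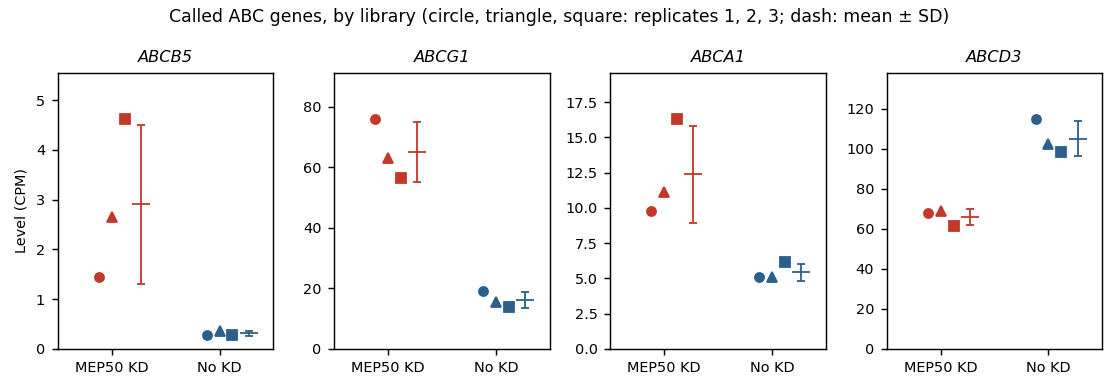
Level in CPM of the 4 called ABC genes in each library, MEP50 KD left and No KD right, with mean and SD. The groups do not overlap in any panel, and ABCB5 spans 1.45 to 4.62 CPM in MEP50 KD and 0.272 to 0.366 CPM in No KD.

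ABCD4, a D member that serves cobalamin export from lysosomes, was not called, at 27.6 ± 4.87 CPM in MEP50 KD and 27.7 ± 1.63 CPM in No KD.

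Libraries with the same replicate number deviated together, and a fit with that number as a block called 8 further members, 3 higher and 5 lower. In all it called 6 higher and 6 lower, which is 18.8% each, against 11.2% higher and 14.9% lower among all genes tested. In either direction this is 37.5% against 26.1%. The log2 fold changes of the 8 lay between -0.51 and 0.51 in that fit. Unless stated, the log2 fold changes and SEs of single genes are those of the fit without the block.

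ABCE1 and ABCF1, of the subfamilies that work on ribosomes and translation, fell in the block fit. ABCE1 was at 190.1, 197.4 and 178.2 CPM in MEP50 KD replicates 1, 2 and 3 and at 304.4, 227.1 and 236.3 CPM in No KD replicates 1, 2 and 3, without overlap (log2 fold change -0.44, SE 0.14, edgeR adjusted p 0.0932 without the block and 0.0133 with it). Its exons share 7.49% of their length with ANAPC10 and 4.41% with OTUD4, both on the other strand, and OTUD4 had a log2 fold change of -0.45 (adjusted p 0.0392, edgeR). ABCF1, which works with translation initiation factors, was at 103.9, 77.6 and 84.5 CPM in MEP50 KD replicates 1, 2 and 3 and at 125.8, 104.2 and 104.4 CPM in No KD replicates 1, 2 and 3. Its ranges nearly met (log2 fold change -0.33, SE 0.15, edgeR adjusted p 0.205 without the block and 0.0217 with it). ABCF2 was at 118.0, 104.7 and 106.3 CPM in MEP50 KD replicates 1, 2 and 3 and at 153.9, 116.0 and 109.4 CPM in No KD replicates 1, 2 and 3, with No KD replicate 1 alone standing high. It was not called in either fit (log2 fold change -0.21, SE 0.15), nor was ABCF3 (log2 fold change -0.14, SE 0.12), the remaining F member.

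Among the lipid transporters of subfamily A, ABCA5 and ABCA12 fell and ABCA2 rose in the block fit. ABCA5, a late endosomal and lysosomal member, was at 16.5, 22.7 and 21.4 CPM in MEP50 KD replicates 1, 2 and 3 and at 24.0, 26.4 and 32.2 CPM in No KD replicates 1, 2 and 3, without overlap (log2 fold change -0.44, SE 0.18, edgeR adjusted p 0.163 without the block and 0.0192 with it). ABCA12, which supplies lipids of the skin barrier, was at 3.91, 8.89 and 8.56 CPM in MEP50 KD replicates 1, 2 and 3 and at 6.40, 12.7 and 10.2 CPM in No KD replicates 1, 2 and 3. Its groups overlapped, but each MEP50 KD library was below the No KD library of its number (log2 fold change -0.45, SE 0.34, edgeR adjusted p 0.456 without the block and 0.0381 with it). ABCA2, an endosomal lipid transporter abundant in brain, was at 83.6, 138.2 and 123.7 CPM in MEP50 KD replicates 1, 2 and 3 and at 47.0, 140.9 and 81.7 CPM in No KD replicates 1, 2 and 3. The pairs gave 0.83, -0.03 and 0.60, so that pair 2 held almost no difference. ABCA2 had a log2 fold change of 0.36 without the block (SE 0.35, edgeR adjusted p 0.567) and 0.46 with it (SE 0.14, adjusted p 0.0295).

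The remaining tested A members were not called in either fit. ABCA3 was at 71.2, 74.9 and 97.6 CPM in MEP50 KD replicates 1, 2 and 3 and at 74.4, 96.3 and 96.6 CPM in No KD replicates 1, 2 and 3, with overlapping ranges (log2 fold change -0.13, SE 0.16). ABCA7, a phospholipid transporter linked to Alzheimer disease, was at 25.5 ± 2.41 CPM in MEP50 KD and 33.1 ± 13.1 CPM in No KD. ABCA4, the retinoid transporter of the retina, was at 0.442 ± 0.315 CPM in MEP50 KD and 0.442 ± 0.217 CPM in No KD.

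Among the mitochondrial B members, ABCB10, which acts in heme synthesis in the inner membrane, was at 38.7, 46.3 and 35.8 CPM in MEP50 KD replicates 1, 2 and 3 and at 61.0, 46.9 and 47.0 CPM in No KD replicates 1, 2 and 3. Its ranges missed each other by a small margin and it was not called (log2 fold change -0.36, SE 0.16, edgeR adjusted p 0.209 without the block and 0.0579 with it). ABCB8 had a log2 fold change of 0.03 (SE 0.23), and ABCB9, the lysosomal peptide transporter, one of -0.12 (SE 0.15). ABCB9 shares exon sequence with OGFOD2, ARL6IP4 and RP11-197N18.2 on the opposite strand, and its count is uncertain. OGFOD2, the highest of these, was at 5.82 CPM in MEP50 KD and 5.37 CPM in No KD. ABCB9 was at 47.3 CPM in MEP50 KD and 51.4 CPM in No KD. ABCB11, the bile salt export pump, was at 2.77 ± 1.41 CPM in MEP50 KD and 3.66 ± 1.73 CPM in No KD.

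ABCB6, which transports porphyrins, was at 9.91, 6.73 and 4.81 CPM in MEP50 KD replicates 1, 2 and 3 and at 11.2, 9.43 and 8.99 CPM in No KD replicates 1, 2 and 3. The groups overlapped through MEP50 KD replicate 1 (log2 fold change -0.47, SE 0.26, edgeR adjusted p 0.303 without the block and 0.0399 with it). Of its exon length, 54.5% overlaps ATG9A on the same strand, so its count is uncertain.

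No member of subfamily C was called without the block. ABCC4 was at 534.3, 545.9 and 460.4 CPM in MEP50 KD replicates 1, 2 and 3 and at 488.3, 451.5 and 475.4 CPM in No KD replicates 1, 2 and 3, with overlapping ranges (log2 fold change 0.12, SE 0.12, edgeR adjusted p 0.583 without the block and 0.459 with it). ABCC1 had a log2 fold change of 0.12 (SE 0.18), and ABCC5, an exporter of cyclic nucleotides, one of 0.02 (SE 0.20). ABCC10, the exporter MRP7, was at 18.2, 16.7 and 15.5 CPM in MEP50 KD replicates 1, 2 and 3 and at 12.3, 13.8 and 11.6 CPM in No KD replicates 1, 2 and 3, without overlap (log2 fold change 0.42, SE 0.16, edgeR adjusted p 0.136 without the block and 0.0335 with it).

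ABCC11, the apocrine gland transporter that sets earwax type, was at 8.78, 25.0 and 11.8 CPM in MEP50 KD replicates 1, 2 and 3 and at 5.28, 16.7 and 9.93 CPM in No KD replicates 1, 2 and 3. Replicate 2 was the highest of each group, and the groups overlapped (log2 fold change 0.52, SE 0.46, edgeR adjusted p 0.521 without the block and 0.0199 with it). Without MEP50 KD replicate 2, and without the block, the log2 fold change was -0.05. Its exons share 4.04% of their length with LONP2 on the other strand, which was at 367.4 CPM in MEP50 KD and 452.9 CPM in No KD. LONP2 was far above ABCC11 in both groups, so the count of ABCC11 and its call with the block are uncertain. ABCC8, the sulfonylurea receptor SUR1 of KATP channels, was at 2.26 ± 0.649 CPM in MEP50 KD and 1.40 ± 0.280 CPM in No KD (log2 fold change 0.68, SE 0.30, edgeR adjusted p 0.202 without the block and 0.0506 with it). ABCC6, whose loss causes pseudoxanthoma elasticum, was at 2.52 ± 0.169 CPM in MEP50 KD and 3.31 ± 0.911 CPM in No KD, and near-identical pseudogenes make its reads uncertain.

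**Figure D4:**
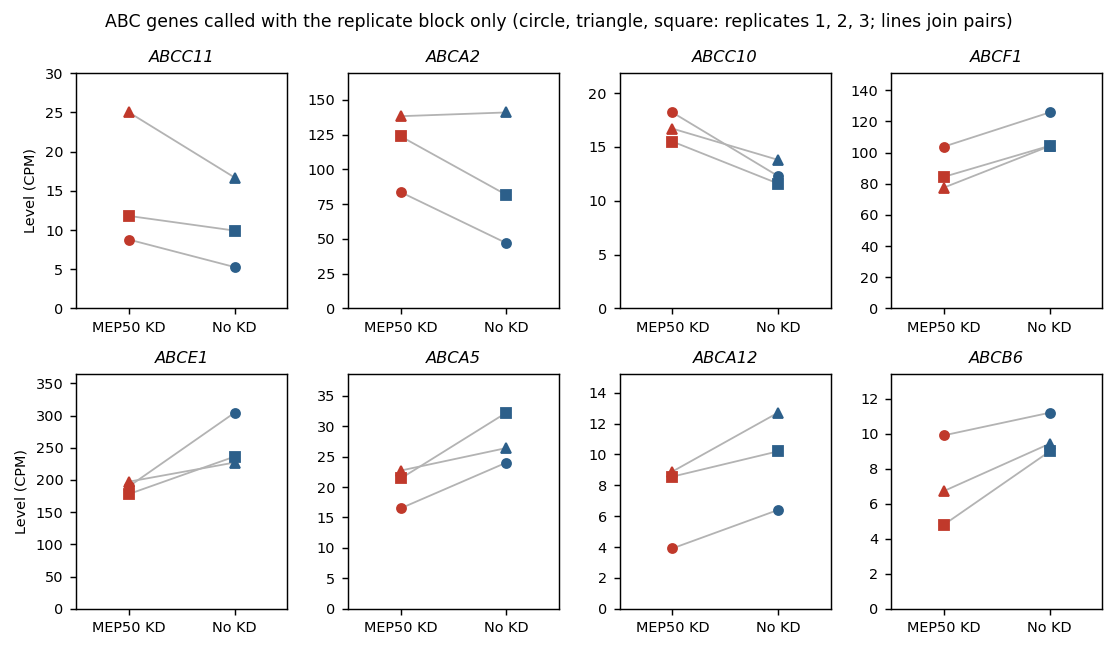
Level in CPM of the 8 ABC genes called only with the replicate block, MEP50 KD left and No KD right, with lines joining libraries of the same number. The lines of a panel go the same way except for ABCA2, whose replicate 2 libraries stand at 138.2 CPM in MEP50 KD and 140.9 CPM in No KD.

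Genes that work with these transporters were read from 8 lists of 62 genes, of which 52 were tested. In edgeR 0 were higher and 4 were lower (NR1H3, SCARB1, GCLM and ETF1), the lower share being 7.69%, against 2.72% higher and 4.88% lower among all genes tested. At an unadjusted p under 0.05, 3 were higher (5.77%) and 11 lower (21.2%), against 10.4% and 14.3% of all genes. DESeq2 called 1 higher, TAPBP. With the block 5 were higher (9.62%) and 12 lower (23.1%), against 11.2% and 14.9% of all genes. The counts of single lists below, each of 10 tested genes or fewer, stand beside these same shares and are too small to set against them. The lower count became 2 without MEP50 KD replicate 1, 1 without MEP50 KD replicate 2 and 2 without MEP50 KD replicate 3. The median log2 fold change over the 52 was -0.11.

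Of 9 tested genes that receive, sense or carry the sterol moved by ABCG1 and ABCA1, 0 were higher and 2 lower in edgeR, with 2.72% and 4.88% of all genes (0 higher and 3 lower at an unadjusted p under 0.05). NR1H3, the gene of the oxysterol receptor LXR alpha, was at 14.6, 14.0 and 14.8 CPM in MEP50 KD replicates 1, 2 and 3 and at 24.9, 26.4 and 24.9 CPM in No KD replicates 1, 2 and 3. The groups lay far apart and each was narrow (log2 fold change -0.81, SE 0.14, edgeR adjusted p 0.0106), and the call was lost without MEP50 KD replicate 2 (adjusted p 0.0556). NR1H2, the gene of LXR beta, was at 39.5, 48.7 and 45.8 CPM in MEP50 KD replicates 1, 2 and 3 and at 22.1, 43.8 and 35.6 CPM in No KD replicates 1, 2 and 3, with overlapping ranges (log2 fold change 0.40, SE 0.23, edgeR adjusted p 0.32 without the block and 0.0269 with it). ABCG1 and ABCA1, known targets of both receptors, were higher in the MEP50 KD group, in which NR1H3 was lower. A link between the receptor genes and these 2 targets was not tested.

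SCARB1, the HDL receptor that takes up cholesterol ester, was at 45.0, 57.3 and 61.8 CPM in MEP50 KD replicates 1, 2 and 3 and at 84.5, 115.7 and 83.3 CPM in No KD replicates 1, 2 and 3, without overlap (log2 fold change -0.79, SE 0.18, edgeR adjusted p 0.0298). The call was lost without any of the MEP50 KD replicates or without No KD replicate 2, at adjusted p up to 0.0977. NPC1, which releases cholesterol from lysosomes, was lower with the block only (log2 fold change -0.41, SE 0.16, edgeR adjusted p 0.143 without the block and 0.0082 with it). MYLIP, another known LXR target, was not called (log2 fold change -0.20, SE 0.15). The apolipoprotein genes APOA1 and APOE were not tested, at up to 6 reads in a library.

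**Figure D5:**
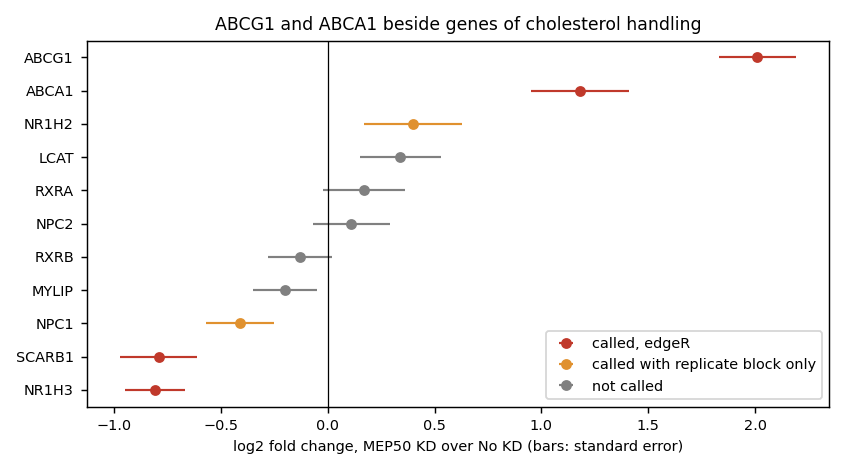
Log2 fold change, MEP50 KD over No KD, with its standard error for ABCG1 and ABCA1 beside the 9 tested genes of cholesterol handling. ABCG1 (2.01) and ABCA1 (1.18) lie above 0, and SCARB1 (-0.79) and NR1H3 (-0.81) are the lowest.

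Among 8 tested genes of detoxification, GCLM was the one call. GCLM, the modifier subunit of the first enzyme of glutathione synthesis, was at 27.7, 26.7 and 23.7 CPM in MEP50 KD replicates 1, 2 and 3 and at 66.3, 60.1 and 70.4 CPM in No KD replicates 1, 2 and 3. The groups lay far apart (log2 fold change -1.33, SE 0.13, edgeR adjusted p 0.0014), and the call held whichever library was left out. GCLC, the catalytic subunit of the same enzyme, was at 19.8 ± 1.56 CPM in MEP50 KD and 20.7 ± 1.82 CPM in No KD (log2 fold change -0.07, SE 0.15). GSTA1, a glutathione transferase, was higher with the block (log2 fold change 0.87, SE 0.21, edgeR adjusted p 0.00809). It was not called without the block (log2 fold change 0.95, SE 0.48, adjusted p 0.259). Without the filter on low counts GSTA1 was also called higher (adjusted p 0.0124, edgeR).

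Of 8 tested peroxisomal genes, 0 were called without the block (0 higher and 2 lower at an unadjusted p under 0.05), and 3 fell with it, HSD17B4 and ACAA1 among them, where 14.9% of all genes fell. DESeq2 and limma-voom called 0 of them. HSD17B4, an enzyme of fatty acid oxidation inside the organelle, was at 386.8, 335.2 and 301.5 CPM in MEP50 KD replicates 1, 2 and 3 and at 499.5, 352.8 and 451.9 CPM in No KD replicates 1, 2 and 3, with overlapping ranges (log2 fold change -0.35, SE 0.16, edgeR adjusted p 0.223 without the block and 0.0488 with it). ACAA1, the thiolase of the same pathway, was at 77.0, 75.0 and 57.7 CPM in MEP50 KD replicates 1, 2 and 3 and at 96.4, 82.8 and 89.3 CPM in No KD replicates 1, 2 and 3, without overlap (log2 fold change -0.36, SE 0.14, edgeR adjusted p 0.163 without the block and 0.0293 with it). PEX19 and PEX3, which insert membrane proteins such as ABCD3, were not called in either fit, at log2 fold changes of -0.25 (SE 0.13) and -0.28 (SE 0.15).

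Of 9 tested genes of ribosome recycling and termination, 1 fell without the block, and ETF1, HBS1L and EIF3J fell with it, where 4.88% and 14.9% of all genes fell. ETF1, the release factor that acts before ABCE1, was at 199.0, 190.4 and 171.1 CPM in MEP50 KD replicates 1, 2 and 3 and at 315.0, 253.9 and 252.9 CPM in No KD replicates 1, 2 and 3, without overlap (log2 fold change -0.55, SE 0.13, edgeR adjusted p 0.0414). The call was lost with RLE scaling (adjusted p 0.0532) and without any library other than No KD replicate 2 (up to 0.158). PELO, which works with ABCE1 on stalled ribosomes, was not called (log2 fold change -0.18, SE 0.13).

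The heme and iron-sulfur list had 0 calls among 10 tested genes without the block (1 higher and 1 lower at an unadjusted p under 0.05). With it, PPOX, an enzyme of heme synthesis, was lower (log2 fold change -0.45, SE 0.16, edgeR adjusted p 0.118 without the block and 0.0231 with it). DESeq2 and limma-voom called 0 of the list. SLC25A37, the mitochondrial iron carrier, was higher with it (log2 fold change 0.33, SE 0.14, edgeR adjusted p 0.167 without the block and 0.0489 with it).

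TAP1 and TAP2, the antigen peptide transporters of subfamily B, were not called, at log2 fold changes of 0.13 (SE 0.15) and -0.15 (SE 0.15), and the chloride channel gene CFTR was not tested. Their 5 loading partners had 0 calls without the block (2 higher and 1 lower at an unadjusted p under 0.05), and with it TAPBP and B2M were higher and CALR lower. DESeq2 called TAPBP higher (adjusted p 0.0199) and CALR lower (adjusted p 0.0298). So did edgeR without the filter on low counts (adjusted p 0.0194 and 0.0302). Limma-voom called CALR (adjusted p 0.037) and not TAPBP (0.0578). In edgeR with RLE scaling TAPBP was called higher, at an adjusted p just under the threshold that rounds to 0.05. CALR was not called there (adjusted p 0.0701). CALR, a chaperone of the endoplasmic reticulum, was at 789.3, 740.2 and 644.3 CPM in MEP50 KD replicates 1, 2 and 3 and at 1064.8, 944.6 and 1101.6 CPM in No KD replicates 1, 2 and 3, without overlap (log2 fold change -0.52, SE 0.14, edgeR adjusted p 0.0527 without the block and 0.00761 with it). KCNJ11, the pore that pairs with ABCC8, was at 5.25 ± 0.453 CPM in MEP50 KD and 5.46 ± 0.576 CPM in No KD.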

How the data were processed

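RNA sequencing was analysed for 3 MEP50 KD and 3 No KD libraries. The deposited values were read counts per gene. The submitters' processing notes name bcl2fastq, STAR 2.5, featureCounts (Subread 1.6.5), edgeR 3.20.8 and hg38. The annotation release and strand setting are not given in the sources used here, so reads of genes overlapping on opposite strands may be mixed. The deposited gene length gave TPM.

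Counts were scaled by TMM, filtered with filterByExpr and tested with edgeR 4.0.16 (R 4.3.3) by a two-sided quasi-likelihood F test over 21101 genes, with Benjamini-Hochberg adjustment over all of them. The standard error (SE) is the size of the log2 fold change divided by the square root of F. Alternatives were RLE scaling, DESeq2 1.42.0, limma-voom 3.58.1, no filter, a replicate block and leaving out each library.

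Same-numbered libraries deviated together (r = 0.554, 0.381 and 0.358 across genes, against -0.39 to 0.06 for other pairs). Deviations were taken from the mean of each group, so high values for same-numbered libraries force low values for other pairs. The contrast between them is therefore partly built in. The labels do not state that same-numbered libraries are pairs. The pairing used here and in the block was inferred from these same data. Residual degrees of freedom were 4 without the block and 2 with it. The members and gene lists were chosen with earlier results of these data known. Values per library are given for members called in either fit, the highest member of each subfamily and ABCB5. Partner genes named were those called and the smallest p of each list. ABCB1, ABCA13, ABCB10 and the remaining partner genes were picked after their values were seen. Some genes that these rules select are not reported here.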

Additional observations from a re-analysis of the deposited data

How the results depend on the processing

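The ABC members called higher stayed 3, and those called lower 1, with RLE scaling, DESeq2, limma-voom and no filter on low counts. With the replicate block they became 6 and 6. Leaving out a library gave 2 to 3 higher and 0 to 1 lower. All genes called, 1603, became 3148 without a filter, 5506 with the block and 497 to 1423 when a library was left out (497, 681, 818 and 889 without MEP50 KD replicate 2, MEP50 KD replicate 3, No KD replicate 1 and No KD replicate 3). Partner genes called higher, 0 in edgeR, were 1 with RLE scaling and 1 in DESeq2, 3 without a filter and 5 with the block. Those called lower, 4, were 12 with the block and 1 to 4 when a library was left out. The WDR77 log2 fold change ran from -1.80 to -1.55 when a library was left out. ABCC11 was at -0.05 without MEP50 KD replicate 2 and ABCF2 at 0.00 without No KD replicate 1 (log2 fold changes, none called), and the cause was not tested. When a library was left out, ABCC11 ran from -0.05 to 0.98 and ABCF2 from -0.31 to 0.00. Among the ABC members, the block changed no call beyond the 8 given. Depth limits ABCB1 and the other members that did not pass the filter, and floors cover counting error only.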
